A study of Mus musculus with 4 samples.

Results

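Mitosis is driven by the kinase CDK1 with its A and B cyclins, which condense the chromosomes and build the spindle. Kinetochores, the protein plates on the centromeres, then attach the chromosomes to spindle microtubules, and the spindle checkpoint holds back anaphase until all are attached. The anaphase-promoting complex (APC/C) next marks securin and cyclin B for destruction, the chromatids part, and cytokinesis divides the cell. Transcripts of these genes are made mainly in the G2 and M phases, so their summed level in a population follows the share of dividing cells, and myeloid progenitors of the bone marrow are among the most actively dividing cells of the blood system.

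The mitosis and spindle genes described here were 43 genes picked by name for their roles in mitotic entry, the spindle, the kinetochore, anaphase and cytokinesis, among 18193 genes named on the array by a single gene symbol. Of the 43, 42 were found by symbol, and Ccnb1, the cyclin B1 gene, is not analysed here. RNA was measured on 4 Affymetrix mouse arrays, 1 each for Trib1-/- GMP, wild-type GMP, Trib1-/- MDP and wild-type MDP. Both cell types were sorted from unstimulated animals of a mixed C57BL6J/129SV background, and nothing but the Trib1 genotype distinguished the groups of a cell type in the labels. GMP is the granulocyte monocyte progenitor. The cell type of the MDP samples is given as macrophage dendritic cell, and MDP usually stands for the progenitor of monocytes (or macrophages) and dendritic cells. Trib1 encodes a pseudokinase, a scaffold through which the ligase COP1 reaches C/EBP proteins. The sources used here do not give the knockout allele, the age and number of animals behind an array or the sort gates.

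Values are log2 RMA values, and a difference of 1 is 2-fold. Genes whose 4 values all lay under the median of all values (3.29, called the floor) were set aside. This kept 11653 genes and 41 of the 42 mitosis genes, of which 39 were above the floor on all 4 arrays. Plk1, the polo-like kinase gene, stayed below it on every array. With 1 array per group no spread between animals, sorts or arrays can be estimated, so no test was made, no p-value is given, and differences are described by their size. Probe sets of the same gene do give a technical spread: over the 24 mitosis genes with several, the root mean square SD of their genotype differences was 0.48 in GMP and 0.34 in MDP. In bulk RNA, fewer cells in mitosis and less of each transcript per cell cannot be told apart.

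Several features of the arrays bear on these genes. On each GMP array all 8 GMP markers examined passed the floor. On both MDP arrays Csf1r, Irf8, Klf4, Ccr2, Ly86, Cx3cr1 and Flt3 were above it, while Kit, commonly used to sort the MDP, was below it, at 2.69 in Trib1-/- MDP and 2.43 in wild-type MDP. Passing the floor did not separate the cell types, since 6 of the 8 GMP markers also passed on each MDP array. Likewise, 7 of the 8 MDP markers passed on each GMP array. The linear sum of the MDP markers was 470 in Trib1-/- GMP, 484 in wild-type GMP, 1162 in Trib1-/- MDP and 1124 in wild-type MDP. That of the GMP markers was 1264 in Trib1-/- MDP and 1332 in wild-type MDP. Trib1 itself was read by 2 probe sets, but the deleted part is not stated, so it does not check the labels. Both were read higher on the Trib1-/- GMP array (differences of 0.34 and 0.15) and lower on the Trib1-/- MDP array (-0.41 and -0.43). The wild-type GMP array stood apart from the MDP arrays more than the Trib1-/- GMP array did (Pearson correlations over all probe sets of 0.95 with Trib1-/- MDP and 0.948 with wild-type MDP, where the Trib1-/- GMP array had 0.967 and 0.964). The comparisons that use it cannot be repeated without it, but the MDP genotypes and the Trib1-/- progenitors are compared below without that array. The signal at the 3′ end of Gapdh exceeded that at its 5′ end by 1.20 on the Trib1-/- GMP array and 1.06 on the wild-type GMP array, and by 1.66 on the Trib1-/- MDP array and 1.44 on the wild-type MDP array. For Actb the excess was 1.91 on the Trib1-/- GMP array and 2.01 on the wild-type GMP array, and 1.67 on the Trib1-/- MDP array and 2.01 on the wild-type MDP array, so it ran the other way between genotypes. The hybridisation controls BioB and BioC averaged 0.37 higher on the Trib1-/- GMP array and differed by -0.12 between the MDP genotypes.

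**Figure D1:**
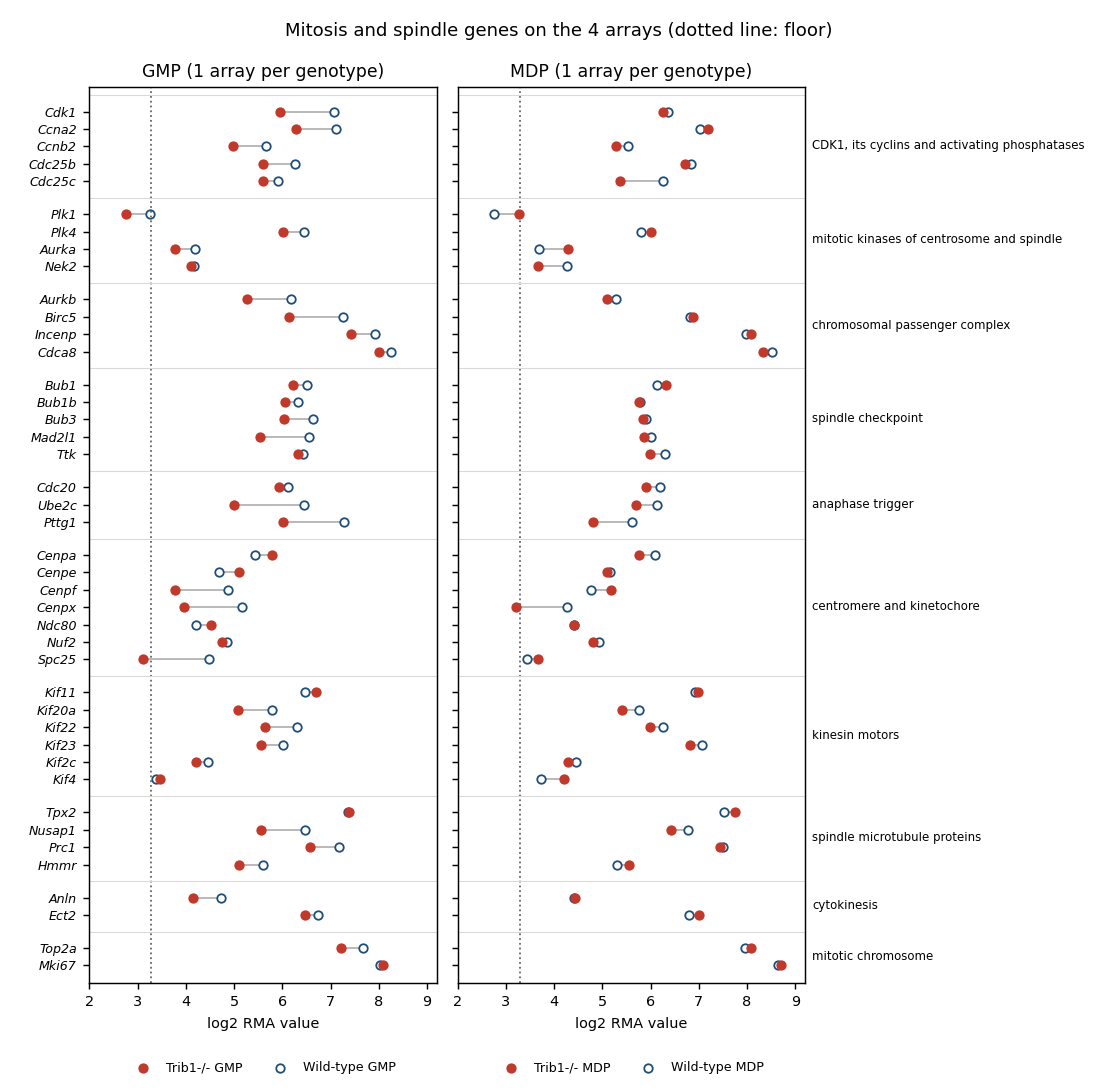
Log2 RMA value (x axis) of each of the 42 mitosis and spindle genes with a probe set, grouped by role, in GMP (left panel) and MDP (right panel). Filled points are the Trib1-/- array and open points the wild-type array, 1 array each, joined by a line; the dotted line is the floor of 3.29. In GMP most filled points lie left of the open ones, while in MDP they lie close to them on either side.

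In GMP, most mitosis and spindle genes read lower in the knockout. Of the 41 genes, 34 had a negative difference (82.9%), where 55.2% of all genes did, and the median difference was -0.46, against -0.057 over all genes. At least 2-fold lower were 8 of the 41 (19.5%), against 3.16% of all genes, and 0 were at least 2-fold higher, against 0.481% of all genes. At 1.5-fold the lower genes were 17 of 41, against 13.2% of all genes, and 0 were higher, against 5.28%. Summed on the linear scale over the 42 measured genes, the signal was 2711 in Trib1-/- GMP and 3693 in wild-type GMP. The 8 genes at least 2-fold lower were Ube2c, Spc25, Pttg1, Cenpx, Birc5, Cdk1, Cenpf and Mad2l1, which act at successive steps from mitotic entry to anaphase.

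**Figure D2:**
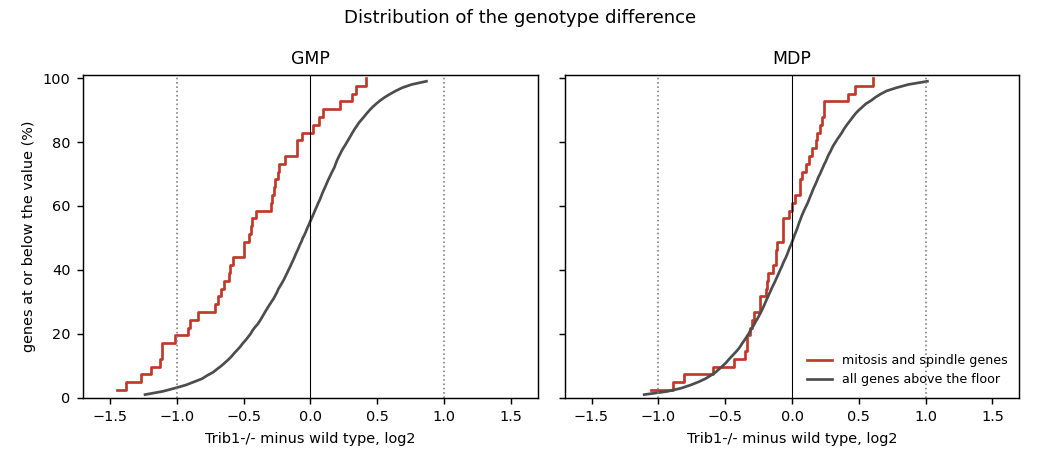
Cumulative share of genes (y axis, percent) at or below a given log2 difference between Trib1-/- and wild type (x axis), in GMP (left) and MDP (right). The red steps are the 41 mitosis and spindle genes and the dark line all 11653 genes above the floor, drawn from the first to the 99th percentile; dotted lines mark 2-fold. In GMP the red curve lies left of the dark one over most of its range, with medians of -0.46 and -0.057, and in MDP the 2 curves cross, with medians of -0.070 and 0.012.

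Of the 3 genes of the anaphase trigger, Ube2c and Pttg1 were at least 2-fold lower and Cdc20 was not. Ube2c, the E2 enzyme that supplies ubiquitin to the APC/C (probe set 1452954_at), read 5.01 in Trib1-/- GMP against 6.45 in wild-type GMP, a 2.73-fold lower signal (log2 difference -1.45). Pttg1, which encodes securin, the inhibitor of the protease that cuts cohesin (1438390_s_at), read 6.0 in Trib1-/- GMP against 7.27 in wild-type GMP (-1.26). Its 2 other probe sets above the floor were lower too, at -1.11 and -0.22. Cdc20, the activator of the APC/C at anaphase, differed by only -0.19, and its other probe sets by -0.47 and -0.088. All 3 genes of this step were thus lower on the knockout array, Cdc20 by less than the SD between probe sets.

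CDK1, its cyclins and its activating phosphatases were lower in all 5 measured genes, with a median of -0.69. Cdk1 itself (1448314_at) read 5.95 in Trib1-/- GMP against 7.06 in wild-type GMP, 2.16-fold lower. Ccna2, the cyclin A2 gene, read 6.28 in Trib1-/- GMP against 7.12 in wild-type GMP (-0.84, second probe set -0.47). Ccnb2, the cyclin B2 gene, read 4.98 in Trib1-/- GMP against 5.67 in wild-type GMP (-0.69). Cdc25b and Cdc25c, phosphatases that remove the inhibitory phosphates of CDK1, differed by -0.65 and -0.30, and the second probe set of Cdc25c by -0.039. The differences of this role thus ran from -0.30 to -1.11, each in the same direction.

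The chromosomal passenger complex corrects faulty attachments at the centromere and later sits at the midzone. Its 4 genes were all lower by their leading probe sets. Birc5, which encodes survivin (1424278_a_at), read 6.13 in Trib1-/- GMP against 7.25 in wild-type GMP, 2.18-fold lower. Aurkb, the kinase of the complex, read 5.26 in Trib1-/- GMP against 6.17 in wild-type GMP (-0.92, second probe set -0.78). The scaffold gene Incenp differed by -0.50 and the borealin gene Cdca8 by -0.24. All 3 probe sets of Cdca8 were lower, whereas those of Incenp disagreed, with the others above the floor at -0.51, 0.70 and 0.35.

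Among the spindle checkpoint genes, Mad2l1 stood out from the others. Mad2l1, which encodes the MAD2 inhibitor of CDC20 (1422460_at), read 5.53 in Trib1-/- GMP against 6.54 in wild-type GMP, 2.01-fold lower. Bub3, whose product docks the checkpoint kinases at the kinetochore, differed by -0.61, with its other probe sets from -0.40 to 0.26. Bub1 (-0.28), Bub1b, which encodes BUBR1 (-0.26), and the kinase gene Ttk (-0.098) differed by less, and the second probe sets of Bub1b and Ttk read 0.053 and 0.068. All 5 genes were lower by their leading probe set, with a median of -0.28.

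The centromere and kinetochore genes were divided. Spc25, a subunit of the NDC80 complex that grips microtubules (1424118_a_at), read 3.10 in Trib1-/- GMP, under the floor, against 4.49 in wild-type GMP (-1.38). The second probe set of Spc25 differed by 0.16, with both values under the floor (3.17 in Trib1-/- GMP and 3.01 in wild-type GMP). Cenpx, a histone-fold protein of the centromere (1416553_at), read 3.97 in Trib1-/- GMP against 5.17 in wild-type GMP (-1.20). Cenpf, a large kinetochore protein of late G2 (1427161_at), read 3.77 in Trib1-/- GMP against 4.88 in wild-type GMP (-1.11). The second probe set of Cenpf differed by -0.21, with both values under the floor (2.66 in Trib1-/- GMP and 2.87 in wild-type GMP). The partners of Spc25 in the NDC80 complex did not share its difference, with Ndc80 at 0.31 and Nuf2 at -0.099. Cenpa, the centromeric histone H3 variant, read 0.34 higher, though 1 of its other probe sets was at -0.55, and the motor gene Cenpe read 0.42 higher, with a second probe set at -0.27. The median over the 7 genes was -0.099.

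Of the kinesin motors 4 of 6 were lower, none by 2-fold. Kif20a, which carries the passenger complex to the midzone, differed by -0.71, the chromosome motor Kif22 by -0.67 (its 2 other probe sets -1.07 and -0.44), Kif23, a part of centralspindlin in cytokinesis, by -0.44, and the microtubule depolymerase Kif2c by -0.24. Other probe sets of Kif2c were at -0.17 and 0.45, the latter with both GMP values under the floor. Kif11, which pushes the spindle poles apart, read 0.22 higher by its leading probe set and lower by both others (-0.94 and -0.73). Kif4, a chromosome-bound motor of the midzone, was at 0.094. Among the spindle proteins, Nusap1 read 5.57 in Trib1-/- GMP against 6.47 in wild-type GMP (-0.90, though a second probe set read 0.37). Prc1, which bundles midzone microtubules, differed by -0.60 (second probe set -1.02) and Hmmr by -0.50 (other probe sets from -0.61 to 0.043). Tpx2, the activator of Aurora A, was at 0.018 (second probe set -0.41). The cytokinesis genes Anln (-0.58) and Ect2 (-0.27) were both lower.

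The remaining genes ranged from near 0 to close to the median of the 41. Mki67, which encodes the proliferation marker Ki-67, read 8.10 in Trib1-/- GMP against 8.03 in wild-type GMP, a difference of 0.066. Top2a, the topoisomerase of mitotic chromosomes, differed by -0.46, with a second probe set at 0.091. The centrosome kinase genes Plk4 (-0.43, other probe sets from -0.96 to 0.40) and Aurka (-0.41) were lower by less than the SD between probe sets, and Nek2 was at -0.062. Over all 81 probe sets of the mitosis genes above the floor, 60 were lower on the knockout array (74.1%), against 55.4% of all named probe sets above the floor. Of the 24 genes with several such probe sets, 10 had all of them lower (41.7%, against 30.3% of all such genes) and 0 had all of them higher, against 17.9% of all such genes.

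Some markers of other cell types moved with this comparison. The 7 basophil and mast cell markers were all lower on the Trib1-/- GMP array, against 55.2% of all genes. At least 2-fold lower were 4 of them (57.1%, against 3.16% of all genes). Their summed linear signal was 199.7 in Trib1-/- GMP and 483 in wild-type GMP. Of the 7, only Gzmb was under the floor in Trib1-/- GMP. Gzmb passed the floor only on the wild-type GMP array, so its direction was fixed by the filter. The 6 markers above the floor on both GMP arrays had a median difference of -1.05. The sum of the 8 GMP markers was 6629 in Trib1-/- GMP and 7527 in wild-type GMP, and that of the 7 mature neutrophil markers 116 in Trib1-/- GMP and 126 in wild-type GMP. The 9 lymphoid markers summed to 319 in Trib1-/- GMP and 528 in wild-type GMP, mostly through Nkg7 (-0.99). Nkg7 itself read 8.71 in wild-type GMP and 4.10 in wild-type MDP. Of the 6 lymphoid markers above the floor, 4 were lower (66.7%, against 55.2% of all genes), while Cd3e (0.22) and Cd79a (0.68) were higher. Among the lower ones, Cd79b passed the floor only on the wild-type GMP array, so its direction was fixed by the filter. Both GMP values of Ms4a1, also counted as lower, were under the floor. The 4 lymphoid markers above the floor on both GMP arrays had a median difference of 0.068. The 7 erythroid markers summed to 67.6 in Trib1-/- GMP and 103.8 in wild-type GMP, with Car2 (-0.82) alone above the floor. The part of these shifts in the lower mitosis signal was not tested. The median of the mitosis genes moved to -0.22 when probe sets marked by suffix as matching several transcripts were left out. Of the 33 genes then left, 21 had a negative difference and 5 were at least 2-fold lower. The median moved to -0.28 with no gene 2-fold lower when 32 was added to the linear values. Averaging the probe sets of a gene gave 5 of 39 at least 2-fold lower.

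Promoters of mitotic genes often carry a cell cycle homology region (CHR), read by the DREAM and MuvB complexes, and CCAAT boxes bound by NF-Y. Promoter sequence was in hand for 37 of the 43 genes, as 300 bases from RefSeq (build GRCm38.p6), 250 before and 50 after the gene start. The windows of the 6 genes with the largest difference between the GMP genotypes are printed here because they show both kinds of element beside genes that lack them. They run 5′ to 3′ on the strand of the gene, in lower case, and capitals mark matches on either strand to the CHR hexamers TTTGAA and TTTAAA and to CCAAT.
Ube2c: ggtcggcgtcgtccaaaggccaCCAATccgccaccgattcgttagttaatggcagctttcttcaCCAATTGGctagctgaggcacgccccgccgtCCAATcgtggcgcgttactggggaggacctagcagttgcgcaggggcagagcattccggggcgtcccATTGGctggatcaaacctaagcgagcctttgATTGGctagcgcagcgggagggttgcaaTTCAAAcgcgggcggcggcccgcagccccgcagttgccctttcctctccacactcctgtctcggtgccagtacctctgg
Spc25: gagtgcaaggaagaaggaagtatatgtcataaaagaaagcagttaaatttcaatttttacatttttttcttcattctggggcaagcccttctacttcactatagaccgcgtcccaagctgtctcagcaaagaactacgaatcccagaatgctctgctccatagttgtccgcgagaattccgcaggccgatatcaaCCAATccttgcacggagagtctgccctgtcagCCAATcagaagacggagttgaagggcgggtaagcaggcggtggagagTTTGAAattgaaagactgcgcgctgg
Pttg1: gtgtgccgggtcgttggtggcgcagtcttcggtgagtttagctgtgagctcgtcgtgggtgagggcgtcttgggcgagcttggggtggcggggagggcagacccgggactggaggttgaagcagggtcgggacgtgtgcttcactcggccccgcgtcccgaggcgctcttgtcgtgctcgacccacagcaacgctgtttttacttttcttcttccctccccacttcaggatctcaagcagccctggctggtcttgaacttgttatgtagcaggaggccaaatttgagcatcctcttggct
Cenpx: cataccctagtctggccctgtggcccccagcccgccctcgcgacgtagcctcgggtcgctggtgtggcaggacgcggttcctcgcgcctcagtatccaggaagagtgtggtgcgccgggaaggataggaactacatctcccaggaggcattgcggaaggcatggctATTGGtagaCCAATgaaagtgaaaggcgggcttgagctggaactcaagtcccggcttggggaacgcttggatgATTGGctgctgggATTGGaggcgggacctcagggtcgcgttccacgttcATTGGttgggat
Birc5: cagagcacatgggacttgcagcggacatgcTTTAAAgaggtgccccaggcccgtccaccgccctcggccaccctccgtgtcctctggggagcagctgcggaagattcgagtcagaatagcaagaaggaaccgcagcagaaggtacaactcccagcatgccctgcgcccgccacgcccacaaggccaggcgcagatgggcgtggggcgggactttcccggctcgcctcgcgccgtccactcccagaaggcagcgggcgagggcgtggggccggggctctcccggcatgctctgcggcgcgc
Cdk1: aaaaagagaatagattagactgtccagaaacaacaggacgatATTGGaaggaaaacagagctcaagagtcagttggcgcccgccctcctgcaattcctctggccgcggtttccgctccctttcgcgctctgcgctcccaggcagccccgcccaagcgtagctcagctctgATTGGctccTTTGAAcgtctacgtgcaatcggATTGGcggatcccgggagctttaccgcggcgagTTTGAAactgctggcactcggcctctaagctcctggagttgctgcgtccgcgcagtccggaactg

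Ube2c (chr2:164769679-164769978, plus strand) held 1 TTTGAA match, starting 29 bases before the gene start, and 6 CCAAT matches, of which 2 on opposite strands overlap. Cdk1 (chr10:69352863-69353162, minus strand) held 2 TTTGAA matches, starting 71 and 15 bases before the start, and 3 CCAAT matches. Spc25 (chr2:69206164-69206463, minus strand) held 2 CCAAT matches and 1 TTTGAA match. Cenpx (chr11:120713759-120714058, minus strand) held 5 CCAAT matches and no hexamer, and Birc5 (chr11:117848987-117849286, plus strand) only a TTTAAA match, starting 220 bases before the start. Pttg1 (chr11:43425932-43426231, minus strand) held none of the 3 letter strings, although its difference was close to that of Spc25. The 6 windows thus ranged from several matches of both kinds to none.

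Over the 37 windows, 25 held TTTGAA (67.6%), against 17.9% of the 32851 promoter windows of the table and 12.8% of genes above the floor on these arrays. CCAAT was held by 28 (75.7%), against 37.4% of all windows and 38.4% of the genes above the floor. TTTAAA was held by 10 (27.0%, against 13.2% of all windows). Both a hexamer and CCAAT were held by 24 (64.9%), against 10.7% of all windows and 8.03% of the genes above the floor. Matches of different motifs overlapped once in the 37 windows. Of the 32 TTTGAA matches, 50% began between 50 bases before and 20 after the gene start, against 19.7% of the matches in all windows. Of the 69 CCAAT matches, 55.1% began between 100 and 20 bases before it, against 38.0%.

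**Figure D3:**
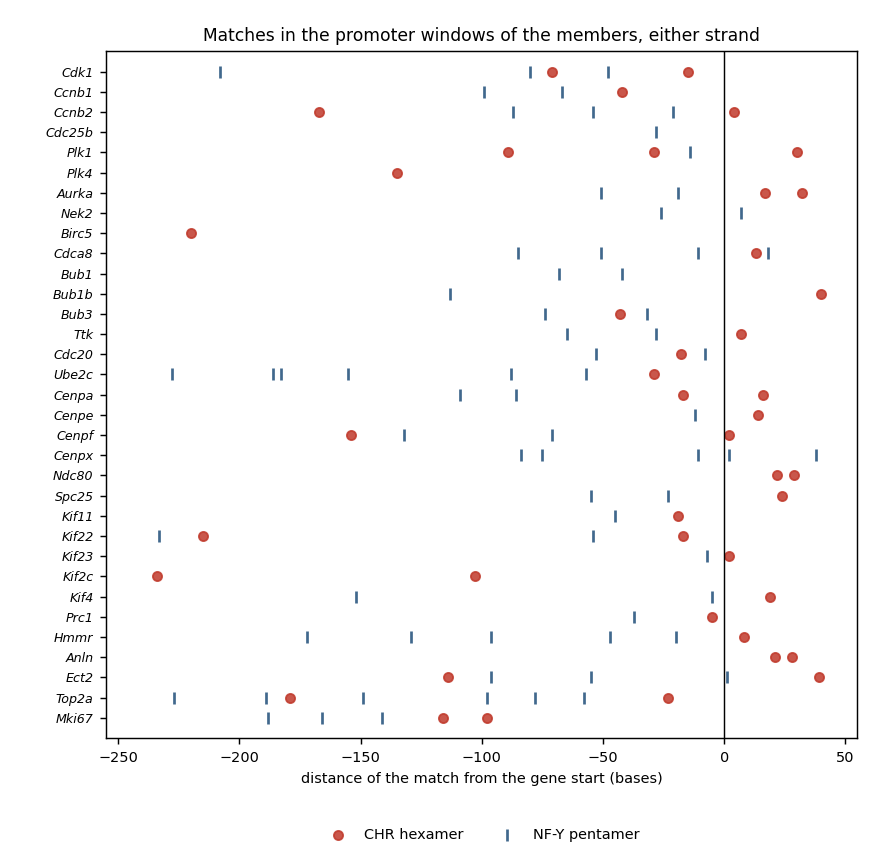
Places of the matches in the 33 member promoters that hold any (rows), as distance in bases from the gene start (x axis, upstream to the left), on either strand. Red points are CHR hexamers and blue ticks NF-Y pentamers. The CHR hexamers gather near the gene start and most of the NF-Y pentamers just upstream of it, and 4 further promoters held neither.

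Genes with and without these letters overlapped in the size of the GMP difference. The 24 genes above the floor with TTTGAA in the window had a median difference of -0.43 between the GMP genotypes, from -1.45 to 0.34, and the 11 without it a median of -0.65, from -1.26 to 0.42. With CCAAT the median was -0.43 over 26 genes, and without it -0.58 over 9. Mad2l1 and Pttg1, both at least 2-fold lower, had neither element in the window.

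In MDP the mitosis and spindle genes were close to balanced between genotypes. Of the 41 genes, 24 had a negative difference (58.5%), against 48.5% of all genes, and the median was -0.070, against 0.012. Only Cenpx was at least 2-fold lower (2.44%, against 1.53% of all genes), and 0 were at least 2-fold higher, against 1.1%. At 1.5-fold, 4 were lower, against 7.61% of all genes, and 1 higher, against 7.16%. Of the 24 genes with several probe sets, 7 had all of them lower (29.2%, against 19.2% of all such genes) and 5 all higher (20.8%, against 26.2%). The summed linear signal over 42 genes was 3645 in Trib1-/- MDP and 3764 in wild-type MDP.

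Cenpx read 3.21 in Trib1-/- MDP, under the floor, against 4.26 in wild-type MDP (-1.05, or -0.97 with the value raised to the floor). It was the only one of the 41 genes at least 2-fold lower in both progenitors, which 0.0944% of all genes were. The next largest differences were those of Cdc25c, at 5.36 in Trib1-/- MDP against 6.26 in wild-type MDP (-0.89), whose second probe set went the other way (0.33), and of Pttg1, at 4.81 in Trib1-/- MDP against 5.62 in wild-type MDP (-0.81), whose other probe sets were lower too (-0.46 and -0.45). Nek2, a centrosome kinase gene, differed by -0.59 and Ube2c by -0.44. On the higher side stood Aurka, the Aurora A kinase gene, at 4.30 in Trib1-/- MDP against 3.69 in wild-type MDP (0.61), then Kif4 (0.47) and Cenpf (0.42). The second probe set of Cenpf differed by 1.13 but passed the floor only on the Trib1-/- MDP array (3.55), so its direction was fixed by the filter.

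Tissue macrophage markers moved with this comparison. All 8 above the floor on any array were at least 2-fold lower on the Trib1-/- MDP array, against 1.53% of all genes. Of these, C1qb and Hmox1 passed the floor only on the wild-type MDP array, so their direction was fixed by the filter. On both MDP arrays 6 markers were above the floor, with a median difference of -2.02. The summed linear signal of the 10 measured was 99.9 in Trib1-/- MDP and 477 in wild-type MDP, and C1qa and C1qc were under the floor on all arrays. In GMP the same sum was 102 in Trib1-/- and 134 in wild type. The part of these markers in the MDP values of the mitosis genes was not tested. The median for MDP was -0.14 after cyclic loess.

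The genotype differences in the 2 progenitors share no array and can be set side by side. Of the 41 genes, 22 were lower in the knockout in both (against 25.6% of all genes), 12 were lower in GMP and higher in MDP (against 29.5%), 2 the reverse (against 22.9%) and 5 higher in both (against 21.6%). The GMP difference was the more negative in 32 of 41 genes (78.0%, against 55.6% of all genes). The genes lower in both included every gene of the anaphase trigger. By their leading probe sets, the 5 higher in both were Ndc80, Kif11, Kif4, Tpx2 and Mki67, of which Ndc80 (0.0019) and Kif11 (0.058) lay near 0 in MDP. In GMP the other probe sets of Kif11 (-0.94 and -0.73) and Tpx2 (-0.41) were lower. That the difference between genotypes depended on the progenitor was not tested, since each value rests on 1 array.

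**Figure D4:**
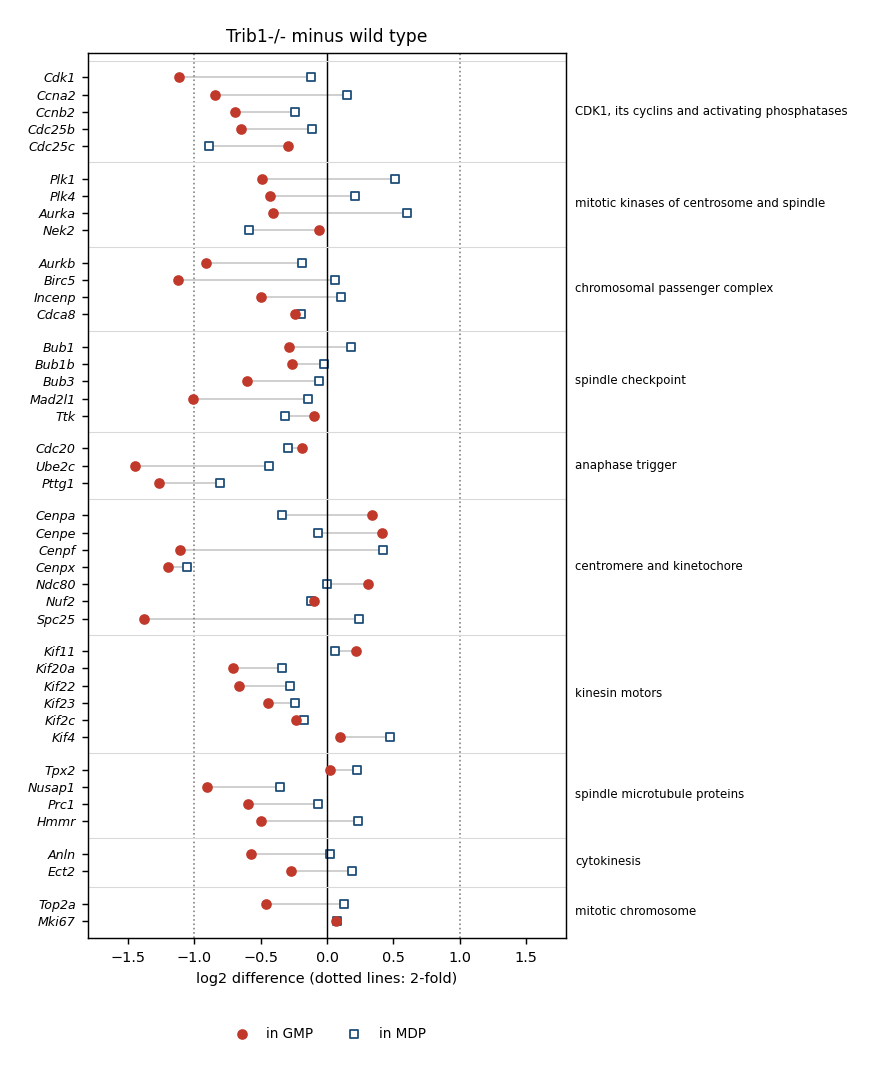
Log2 difference between Trib1-/- and wild type (x axis) for each of 42 mitosis and spindle genes, grouped by role. Filled circles are the difference in GMP and open squares that in MDP, joined by a line, and dotted lines mark 2-fold. The circles of 8 genes lie at or beyond 2-fold on the left and none on the right, while in MDP only Cenpx passes 2-fold.

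Set against the MDP arrays, the Trib1-/- GMP array was the low one. It gave the lowest of the 4 values for 22 of the 41 genes (53.7%), against 19.0% of all genes, and the highest for 1 gene (2.44%), against 14.2%. The wild-type GMP array gave the highest value for 18 genes (43.9%, against 37.1% of all genes) and the lowest for 7 (17.1%, against 29.6%). On the MDP arrays 10 genes were highest in Trib1-/- (24.4%, against 23.8% of all genes) and 12 in wild type (29.3%, against 24.8%). The single gene highest on the Trib1-/- GMP array was Ndc80, at 4.51.

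Set against GMP, MDP read higher for most mitosis genes in the knockout and for about as many as not in wild type. In Trib1-/- cells 13 of the 41 genes were lower in MDP (31.7%, against 51.3% of all genes), the median was 0.32, against -0.014 over all genes, and 3 genes were at least 2-fold higher (7.32%, against 2.75% of all genes) and 1 lower (2.44%, against 4.08%). At 1.5-fold, 12 were higher in Trib1-/- MDP, against 10.2% of all genes, and 2 lower, against 12.7%. In wild type 21 of the 41 were lower in MDP (51.2%, against 52.6% of all genes) and the median was -0.031, against -0.043 over all genes, with 1 gene at least 2-fold higher (2.44%, against 4.16%) and 2 lower (4.88%, against 12.4%). At 1.5-fold, 3 were higher in wild-type MDP, against 15.9% of all genes, and 7 lower, against 24.8%. These comparisons use the same arrays as those between genotypes, so they are other views of the same 4 values and no further support for them.

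Some genes differed in the same direction between the progenitors in both genotypes, by their leading probe set. Kif23 read 6.81 in Trib1-/- MDP against 5.56 in Trib1-/- GMP (1.25), and 7.06 in wild-type MDP against 6.01 in wild-type GMP (1.05). Its second probe set differed by 0.56 in Trib1-/- and 0.054 in wild type, but passed the floor only on the wild-type MDP array (3.31). Pttg1 was the reverse, at 4.81 in Trib1-/- MDP against 6.0 in Trib1-/- GMP (-1.19), and 5.62 in wild-type MDP against 7.27 in wild-type GMP (-1.65). But its probe set with no suffix for shared transcripts differed by -0.081 in Trib1-/- and 0.16 in wild type. The remaining probe set of Pttg1 differed by -0.11 in Trib1-/-, where both its values were under the floor, and by -0.78 in wild type. Cdc25b read 1.12 higher in Trib1-/- MDP than in Trib1-/- GMP and 0.58 higher in wild-type MDP than in wild-type GMP. Mki67 was 0.61 and 0.60 higher in MDP in the same comparisons. In other genes the difference varied with genotype. Cenpf was at least 2-fold higher in MDP in the knockout (5.19 in MDP against 3.77 in GMP, or 1.42) and nearly level in wild type (-0.11). Spc25 had opposite signs in the genotypes, at 0.57 in Trib1-/- (0.39 with its GMP value raised to the floor) and -1.05 in wild type. Its second probe set was at -0.057 in Trib1-/- and 0.44 in wild type, but passed the floor only on the wild-type MDP array (3.45).

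**Figure D5:**
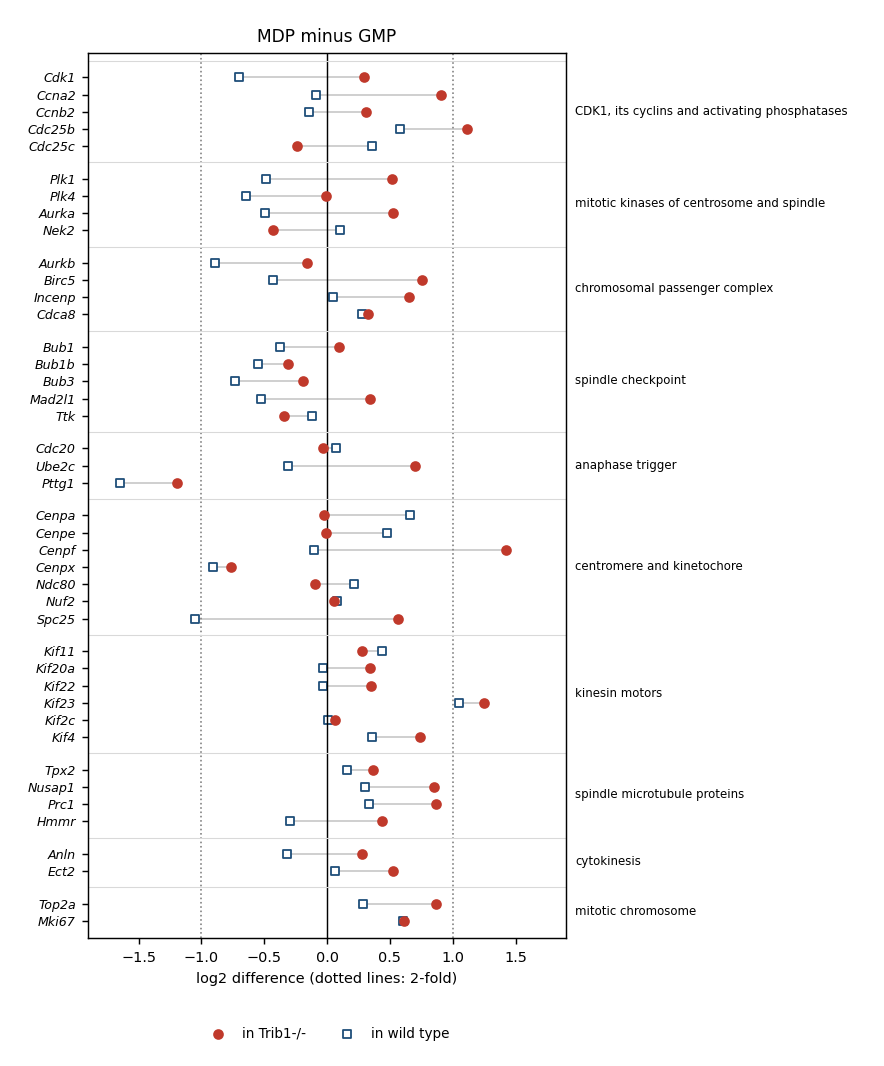
Log2 difference between MDP and GMP (x axis) for each of 42 mitosis and spindle genes, grouped by role. Filled circles are the difference in Trib1-/- and open squares that in wild type, joined by a line, and dotted lines mark 2-fold. Most circles lie right of the squares, with medians of 0.32 and -0.031 over the 41 genes above the floor.

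Other genes of the division cycle, taken from lists by function, leaned the same way in GMP with smaller sizes. Of 44 further mitosis genes above the floor, 34 were lower in Trib1-/- GMP (77.3%, against 55.2% of all genes) and 0 were 2-fold apart, with a median of -0.35 in GMP and 0.047 in MDP between genotypes. Between the GMP genotypes 3.16% of all genes were at least 2-fold lower and 0.481% higher. Cenpl, a centromere subunit, differed by -0.97 in GMP and 0.74 in MDP, Cks2, a small partner of CDK1, by -0.93 and -0.36, Cdca3 by -0.89 and -0.16, and the minus-end kinesin gene Kifc1 by -0.64 and -0.93. Of 33 DNA replication genes, 28 were lower in Trib1-/- GMP (84.8%, against 55.2%), 1 of them at least 2-fold (3.03%, against 3.16%), and the median was -0.28 in GMP and 0.16 in MDP. Tk1, the thymidine kinase gene, differed by -1.08 in GMP and 0.31 in MDP, Rfc5, of the clamp loader, by -0.92 and -0.17, Gins4, of the replicative helicase, by -0.85 and -0.27, and Pole, a DNA polymerase gene, by 0.13 and 0.91. Both lists thus had a GMP median below the -0.057 of all genes and an MDP median above the 0.012 of all genes.

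The 15 genes of the APC/C had a median of -0.32 in GMP and 0.031 in MDP, with 0 at least 2-fold apart. The subunit gene Cdc23 differed by -0.76 in GMP and -0.16 in MDP, Anapc7 by -0.63 and -0.18, Cdc16 by -0.52 and 0.63, and Ube2s, the E2 enzyme that lengthens ubiquitin chains on its substrates, by -0.58 and -0.79. The 18 genes of condensin, cohesin and separase had medians of -0.088 in GMP and 0.24 in MDP, with 0 at least 2-fold apart. There Cdca5, which encodes sororin, was at -0.69 and 0.31, the condensin gene Ncapg2 at -0.59 and 0.48, the cohesin release gene Wapl at -0.11 and 0.67, and the separase gene Espl1 at 0.039 and 0.64. With 3.16% of all genes at least 2-fold lower in Trib1-/- GMP, a count of 0 in lists of 15 and 18 lies near that share.

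Of 21 regulators of mitotic transcription above the floor, 15 were lower in Trib1-/- GMP (71.4%, against 55.2% of all genes), and the medians were -0.23 in GMP and 0.20 in MDP. Rbl2, a pocket protein of the DREAM complex, was the only one at least 2-fold lower in GMP (4.76%, against 3.16% of all genes), at -1.01 in GMP and -0.20 in MDP. E2f1 differed by -0.92 in GMP and 0.33 in MDP, E2f7, a repressor of the family, by -0.42 and 0.55, and Rb1 by 0.025 and -0.63. Among 14 G1 cyclins, their kinases and CDK inhibitors the medians were -0.11 in GMP and 0.11 in MDP. Ccne2, the cyclin E2 gene, was the only one at least 2-fold apart in GMP (-1.07), or 7.14%, where 3.16% of all genes were at least 2-fold lower. Ccne2 passed the floor only on the wild-type GMP array (3.99, against 2.93 in Trib1-/- GMP), so its direction in GMP was fixed by the filter. It was at 0.15 in MDP, where both values were under the floor. Cdk4 differed by -0.89 in GMP and -0.13 in MDP, Ccnd3, the cyclin D3 gene, by -0.079 and 0.94, and the inhibitor gene Cdkn1c by 0.35 and -0.92, with both GMP values under the floor. Cdkn1c passed the floor only on the wild-type MDP array (3.53), so its direction in MDP was fixed by the filter.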

How the data were processed

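RNA was isolated in Trizol and amplified and labelled with the NuGEN Ovation system, per the labels' protocols. The deposited log2 values were made by the authors with RMA, per the submitters' processing notes; the sources used here give neither its version nor a genome build, and the log2 scale is inferred from the range (0.14 to 14.5). RMA makes arrays alike in distribution, so a shift in total RNA per cell cannot be seen, and amplification can widen the spread of weak genes. Array medians lay between 3.27 and 3.31. The number of arrays limits the precision.

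Of 45101 probe sets, 64 were controls, and 34945 had 1 gene symbol, 932 several and 9160 none listed in the platform annotation. Each gene was represented by the probe set of highest average value, and other probe sets above the floor were checked for direction. Differences were taken as Trib1-/- minus wild type and as MDP minus GMP, with no test, and all mitosis genes, up to 4 genes of each other list and Trib1 were named. Members, lists and choices were made with earlier results of these data known. List symbols were matched also through RefSeq synonyms. Where a gene had several promoter windows the first was used, and position 0 is the first base after the 250 upstream. The calculation was tested on simulated data. Alternatives were other floors, probe set rules, scalings and sizes (pandas 2.3.3, numpy 2.4.6, limma 3.58.1 for cyclic loess), and 1 was added after seeing the data.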

Additional observations from a re-analysis of the deposited data

Results flagged for a closer look

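For 4 mitosis genes the genotype difference ran in opposite directions in the 2 progenitors and the 2 differences lay at least 1 apart on the log2 scale. Spc25 differed by -1.38 in GMP (-1.20 with its Trib1-/- value raised to the floor) and 0.24 in MDP. Its second probe set gave 0.16 in GMP and -0.34 in MDP, but passed the floor only on the wild-type MDP array (3.45). Cenpf differed by -1.11 in GMP and 0.42 in MDP. Birc5 differed by -1.12 in GMP and 0.057 in MDP. Aurka differed by -0.41 in GMP and 0.61 in MDP. Each value rests on 1 array per group, and the difference between progenitors was not tested.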

How the results depend on the processing

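In GMP the median difference between genotypes was negative and below that of all genes under all 9 alternatives run, from -0.50 with the floor at the 75th percentile to -0.22 without probe sets whose suffix marks several transcripts. It was -0.32 with the probe sets of a gene averaged, -0.36 with each array centred on the median above the floor, -0.28 with 32 added to the linear values and -0.40 without probe sets shared between genes, an alternative chosen after seeing the data. The count at least 2-fold lower was 5 with averaged probe sets, 5 without the suffixes, 0 with 32 added, 17 at 1.5-fold and 0 at 4-fold. A negative difference was held by 34 of 41 genes in the main setting, 31 of 41 with centred arrays, 30 of 40 without shared probe sets and 21 of 33 without the suffixes. Of all genes 55.2% were negative in the main setting, a share not given here for the alternatives. Centring moved the median of all genes from -0.057 to 0.045 between the GMP genotypes and from -0.043 to 0.088 between the wild-type progenitors.

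Between the MDP genotypes the median was -0.14 after cyclic loess; at least 2-fold lower were 0 with 32 added, 0 with values raised to the floor, 4 at 1.5-fold and 0 at 4-fold, and higher were 1 at 1.5-fold. Between wild-type MDP and GMP the median was 0.10 with centred arrays. There the higher genes were 0 with averaged probe sets, 0 with 32 added, 3 at 1.5-fold and 0 at 4-fold, and the lower genes 1 with the floor at the 75th percentile, 0 with averaged probe sets, 0 without the suffixes, 1 without shared probe sets, 1 with centred arrays, 1 with 32 added, 7 at 1.5-fold and 0 at 4-fold. Between Trib1-/- MDP and GMP the median was 0.24 without the suffixes and 0.18 with 32 added. The higher genes were then 0 with 32 added, 12 at 1.5-fold and 0 at 4-fold, and the lower genes 0 with averaged probe sets, without the suffixes, without shared probe sets, with 32 added and at 4-fold, and 2 at 1.5-fold. Reversed were Spc25 without the suffixes, at 0.16 between the GMP genotypes and 0.44 between the wild-type progenitors, and Pttg1 between the wild-type progenitors, at 0.16 without the suffixes and without shared probe sets, where another probe set stands for the gene. The probe set that then stands for Spc25 passed the floor only on the wild-type MDP array (3.45). For single genes, 1339 of the recomputed values stayed within the root mean square SD between probe sets over all genes with several, 61 moved by more and 4 reversed. That SD was 0.38 for the GMP genotypes, 0.39 for the MDP genotypes, 0.56 for the wild-type progenitors and 0.43 for the Trib1-/- progenitors. Elsewhere the cause was not tested. No paired analysis was possible because each group holds 1 array, and no array could be left out.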
